A study of Mus musculus with 6 samples.

Results

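Complement is a plasma defence system made largely in the liver, and its messenger RNAs were followed here in the livers of mice that lack the fatty acid elongase Elovl6 in that organ. The series profiled 6 male mice. The 3 LKO mice carry a liver-specific knockout of Elovl6, and the 3 control mice, titled Flox, do not. Both groups received a high-sucrose diet (D11725) over 14 days, and food was withdrawn 4 hours before their livers were taken. The mice's age, strain and the Cre driver of the knockout are not given in the sources used here. RNA of every mouse went on a separate Agilent array of 1 colour, which gives n = 3 in both groups. The 32 complement genes are those of the classical, lectin, alternative and terminal pathways with their regulators and receptors. They were found through the RefSeq accessions of the array's non-control probes, which named 22911 genes in all, and all 32 were matched. By where the liver makes them, 21 are called hepatocyte-made here, 7 macrophage-made and 4 neither, an assignment taken from general knowledge and not from these arrays.

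The cascade starts in several ways. In the classical pathway the C1q protein binds antibody or dying cells and switches on the proteases C1r and C1s, which cut C4 and C2. In the lectin pathway mannose-binding lectins and ficolins bind sugars and act through MASP proteases, and in the alternative pathway factor B and factor D build on C3 itself. All routes cut C3, then C5, and end with C6 to C9 forming a pore in the target membrane. Hepatocytes secrete most of these proteins into plasma, whereas C1q and properdin come mainly from macrophages and other myeloid cells. Several components, C3 and factor B among them, are known as acute phase proteins, whose synthesis rises in inflammation.

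The arrays lay on 1 slide, with 52.1% to 56.6% of their spots well above background and 0 spots saturated. The signals below are scaled signals, that is the processed signal of a probe divided by the 75th percentile of its array and multiplied by 278, the geometric mean of the 6 percentiles. A scaled signal can be compared between mice for 1 gene but not between genes, because probes differ in brightness. Elovl6 gave 64.3, 93.6 and 102 in the LKO livers, against 6014, 12027 and 6410 in the control livers, so every mouse matched its label (90.9-fold lower, limma adjusted p = 0.00253). Whether this probe lies in the exon removed by the knockout was not tested.

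Most hepatocyte-made complement genes had modestly higher values in LKO livers. Of the 21 genes, all tested, 19 were higher and 2 lower, with a median log2 change of 0.33, against 0.00 over all 14170 genes tested. In all 19 the lowest LKO liver lay above the highest control liver, which held for 8.16% of all genes tested. That gap was narrow for C1ra, Masp1, Mbl1, Mbl2 and C4b. Over all 30 tested complement genes 26 were higher and 4 lower, where 51% of all genes were higher and 49% lower, and 20 were higher and 0 lower with separate groups, where 9.03% of all genes were lower with separate groups. Among the hepatocyte-made genes the 5 largest changes were those of C8a, Hc, C3, C8b and C9, between 1.35-fold and 1.49-fold. The 2 lower ones were C8g and Masp2, whose groups overlapped. The macrophage-made genes differed in this respect: 5 of the 7 were bright enough to be tested, all 5 had higher mean values, and in 0 of the 5 did the groups separate. The difference between the hepatocyte-made and macrophage-made genes is given as a description and was not tested. The slide held its arrays in 2 columns, the first with LKO liver 1 and all controls. With the column as a term, which leaves LKO liver 1 alone to be set against the controls, the median log2 change was 0.23 over the hepatocyte-made and 0.01 over the macrophage-made genes, against 0.33 and 0.26 without it.

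None of these differences passed correction over the whole array. By limma with Benjamini-Hochberg adjustment, 0 of the 30 tested complement genes reached an adjusted p of 0.05, as did 2 of all genes tested (0.0141%). The smallest adjusted p among them was 0.164, for C8a. At an unadjusted p under 0.05 there were 14 complement genes higher in LKO, all 14 hepatocyte-made, where 5.59% of all genes were higher at that threshold. With the slide column as a term 4 hepatocyte-made genes were higher at that threshold, and 10 without LKO liver 2. Of the 30 tested complement genes 0 were lower at an unadjusted p under 0.05, where 5.56% of all genes were lower. The 30 genes were well above background on all 6 arrays, so that none entered the test through the group in which it was brighter. Brightness itself bears on these shares. In a comparison added after the values were seen, of the 347 tested genes at least as bright as the median hepatocyte-made complement gene, 19.3% were higher and 10.1% lower in LKO with separate groups and 67.4% were higher at all, with a median log2 change of 0.06. Of the 11 hepatocyte-made complement genes among those 347, 10 were higher with separate groups and 8 at an unadjusted p under 0.05, which held for 16.1% of the 347, and their median log2 change was 0.33.

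**Figure D1:**
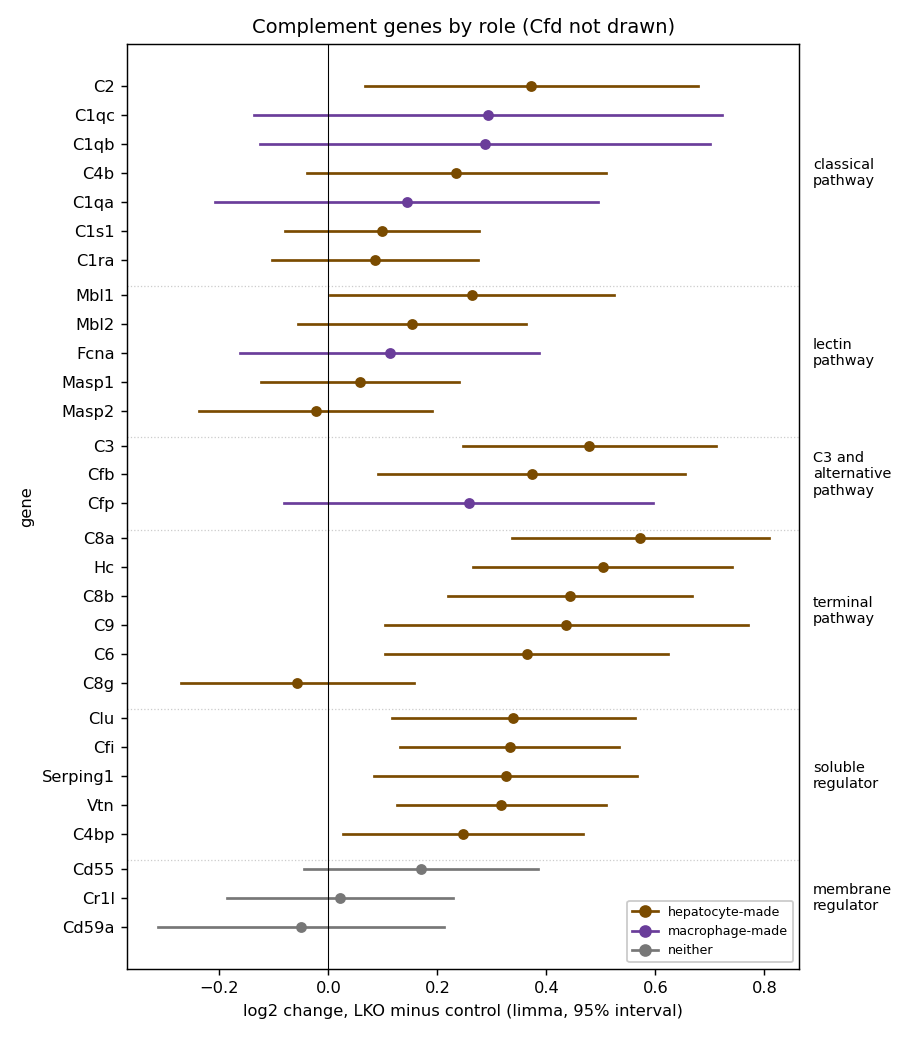
Log2 change of each tested complement gene in LKO minus control livers (x axis, 95% interval from limma, n = 3 mice per group), grouped by role and coloured by the cells that make it; Cfd, whose interval runs from -4.60 to 2.61, is not drawn. The intervals of C8a, Hc, C3 and C8b lie farthest above 0. Those of C8g, of every macrophage-made gene drawn and of several other genes cross 0.

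Of the hepatocyte-made genes, those of the terminal pathway held most of the largest changes. C8a encodes the alpha chain of C8, the subunit that first dips into the target membrane. Its scaled signals were 13951, 16614 and 16138 in LKO livers, against 10081, 10273 and 10983 in control livers. All 3 LKO livers were above all 3 control livers (1.49-fold higher, log2 change 0.57 ± 0.10, SE, limma adjusted p = 0.164). A second C8a probe, for another RefSeq transcript, gave 1.51-fold.

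Hc, the mouse gene of complement C5, whose cleavage starts the assembly of the pore, measured 10396, 12188 and 11676 in LKO livers, against 7612, 7897 and 8645 in control livers. The groups did not overlap here either (1.42-fold higher, adjusted p = 0.200). C8b, which encodes the chain of C8 that binds the growing complex, had 20883, 24468 and 21009 in LKO livers, against 16563, 16238 and 15884 in control livers (1.36-fold, adjusted p = 0.212). The second C8b probe gave 1.30-fold.

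C6, the next protein to join after C5, measured 1826, 1879 and 1665 in LKO livers, against 1406, 1539 and 1239 in control livers (1.29-fold, adjusted p = 0.322). C9, which polymerizes into the wall of the pore, averaged 43265 ± 6778 in LKO and 31839 ± 3327 in control livers (SD, n = 3 each, 1.35-fold, adjusted p = 0.343). C7, a terminal gene outside the 32 genes, was instead lower with separate groups (0.762-fold) and is described below. Thus 5 of the 6 terminal genes among the 32 had higher values with separate groups and an unadjusted p under 0.05. Those shares were 8.16% and 5.59% over all genes tested.

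The sixth, C8g, did not. It encodes the gamma chain of C8, a lipocalin that is disulfide-linked to the alpha chain in the secreted protein. Chosen for per-mouse values after they were seen, C8g measured 67502, 67614 and 59480 in LKO livers, against 67673, 64969 and 69531 in control livers. Its log2 change was -0.06, with a 95% interval from -0.27 to 0.16. Taken within each mouse and relative to the control mean, the log2 ratio of C8a to C8g was 0.42, 0.67 and 0.81 in LKO livers, against -0.06, 0.03 and 0.03 in control livers. This pair joins the highest and the lowest change among the hepatocyte-made genes and was chosen after the values were seen, so the ratio is a description without a test.

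C3 is the hub on which all pathways converge and is abundant in plasma. It measured 263746, 271210 and 289453 in LKO livers, against 196050, 180910 and 215710 in control livers. The lowest LKO liver exceeded the highest control liver (1.39-fold higher, log2 change 0.48 ± 0.10, SE, adjusted p = 0.203), and the second C3 probe gave 1.42-fold. Cfb, encoding factor B, which supplies the protease of the alternative C3 convertase, measured 39944, 41977 and 51717 in LKO livers, against 32589, 34211 and 35781 in control livers (1.30-fold, adjusted p = 0.340). LKO liver 3 stood above the other LKO livers for Cfb, and the second Cfb probe gave 1.25-fold.

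The 250 bases before the RefSeq starts of C8a, Hc, C3, C8b and C9 are shown because these 5 genes had the largest log2 changes among the hepatocyte-made ones. They are read 5′ to 3′ on the gene's strand from RefSeq on build GRCm38.p6, with capitals on each match to a searched motif. C8a lies at chr4:104876399-104876648 (minus strand), Hc at chr2:35061413-35061662 (minus), C3 at chr17:57228137-57228386 (minus), C8b at chr4:104766067-104766316 (plus) and C9 at chr15:6445096-6445345 (plus). The array headers name an older build, so these coordinates belong to the promoter table and not to the probes.
C8a: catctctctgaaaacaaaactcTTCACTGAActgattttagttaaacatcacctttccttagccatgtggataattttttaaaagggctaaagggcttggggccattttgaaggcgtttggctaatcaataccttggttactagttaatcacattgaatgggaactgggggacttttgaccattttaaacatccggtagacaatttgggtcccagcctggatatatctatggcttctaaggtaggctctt
Hc: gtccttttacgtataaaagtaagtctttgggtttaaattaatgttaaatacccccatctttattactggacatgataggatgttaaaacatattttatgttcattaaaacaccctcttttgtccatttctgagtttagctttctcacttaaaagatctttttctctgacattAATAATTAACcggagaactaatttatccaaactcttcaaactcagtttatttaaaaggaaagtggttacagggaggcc
C3: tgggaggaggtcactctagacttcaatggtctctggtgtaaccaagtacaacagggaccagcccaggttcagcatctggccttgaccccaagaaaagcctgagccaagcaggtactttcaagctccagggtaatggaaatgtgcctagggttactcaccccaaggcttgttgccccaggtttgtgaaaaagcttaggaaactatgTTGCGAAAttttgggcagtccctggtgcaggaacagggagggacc
C8b: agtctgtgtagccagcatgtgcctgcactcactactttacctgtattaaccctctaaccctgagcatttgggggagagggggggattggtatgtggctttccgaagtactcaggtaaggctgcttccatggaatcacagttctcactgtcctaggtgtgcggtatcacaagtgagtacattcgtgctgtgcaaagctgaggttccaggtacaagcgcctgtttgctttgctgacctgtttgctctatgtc
C9: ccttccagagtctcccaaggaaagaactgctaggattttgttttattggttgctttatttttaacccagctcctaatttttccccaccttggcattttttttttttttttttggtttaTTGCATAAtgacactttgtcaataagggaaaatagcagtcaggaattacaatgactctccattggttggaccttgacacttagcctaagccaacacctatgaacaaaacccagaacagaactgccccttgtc

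In the C8a window the capitals mark a match to the STAT motif TTCNNNGAA, first base at position -228 relative to the start. In Hc they mark the HNF1 motif, GTTAAT and ATT with 1 base between, on the opposite strand at -78. In C3 and C9 they mark the C/EBP motif TTGCNNAA at -45 and -132, and the C8b window holds none of the motifs. Promoter windows were found for 24 of the 32 genes, 26 windows in all, and both strands were searched for 5 motifs without any overlap between matches. No motif was in all 5 windows shown. The STAT motif was in 2 of the 26 windows (7.69%, against 7.02% of all 32851 RefSeq windows), and C/EBP in 3, against 9.56% of all windows. HNF1 was in 2 (7.69%, against 0.371%), those of Hc and C4bp. NF-kB (GGG and TTTCC with 2 bases between) and IRF (GAAA and GAAA with 2 bases between) were in 1 window each (3.85%, against 1.41% and 2.98%). A match is a run of letters and not a measured binding site, and with 26 windows each match moves a share by several percent.

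**Figure D2:**
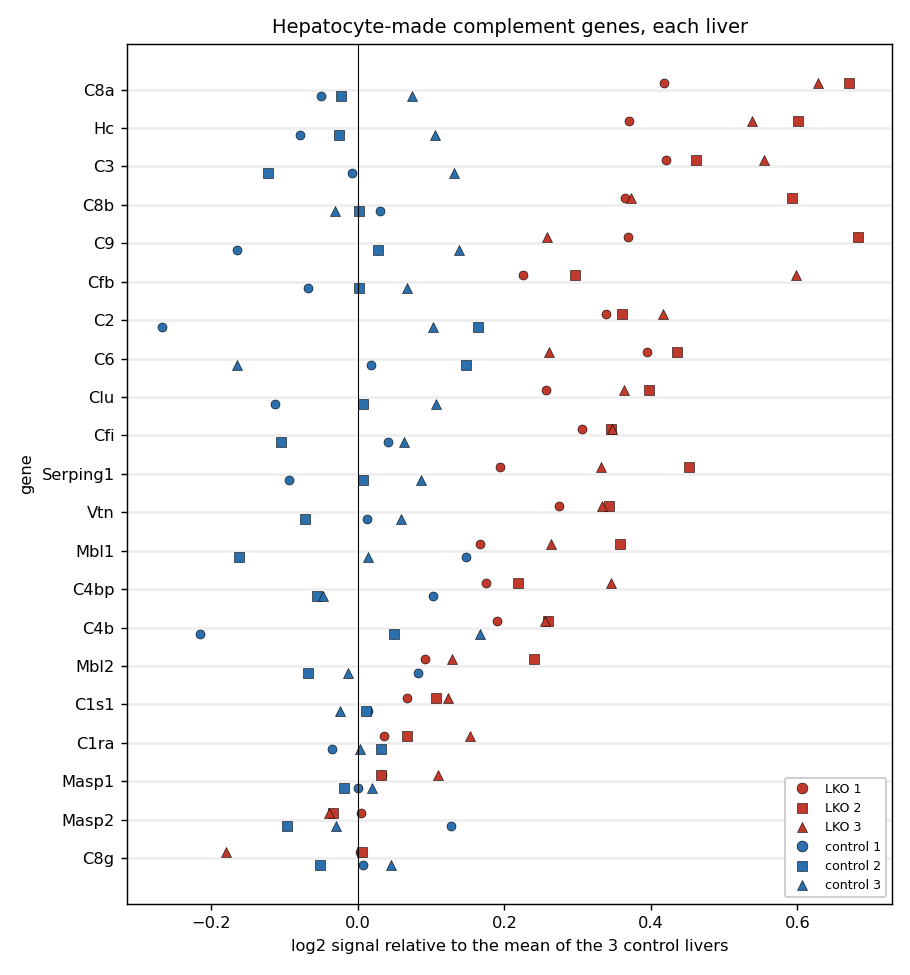
Log2 signal of the 21 hepatocyte-made complement genes in each liver relative to the mean of the 3 control livers (x axis), LKO livers drawn above control livers in each row. From C8a down to Masp1 the LKO livers all lie to the right of the control livers, by a narrow margin in the last rows, and in Masp2 and C8g they mix.

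The soluble regulators, which keep the cascade off the body's own cells, were also higher in value, all 5 of 5 with separate groups and an unadjusted p under 0.05. Those shares were 8.16% and 5.59% over all genes tested, and 19.3% and 16.1% over the 347 bright genes. Cfi, the protease factor I that inactivates C3b and C4b, had 48845, 50190 and 50256 in LKO livers, against 40657, 36752 and 41274 in control livers (1.26-fold, adjusted p = 0.268). Vtn, encoding vitronectin, which blocks insertion of the pore, had 98825, 103632 and 102956 in LKO livers, against 82442, 77748 and 85085 in control livers (1.25-fold, adjusted p = 0.269). For both genes the 3 LKO livers lay close together and clear of the controls.

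Clu, encoding clusterin, another inhibitor of the pore and a chaperone, measured 124635, 137322 and 134126 in LKO livers, against 96416, 104754 and 112266 in control livers (1.27-fold, adjusted p = 0.288). Serping1, the C1 inhibitor, which stops C1r, C1s and the MASP proteases, measured 31483, 37667 and 34643 in LKO livers, against 25806, 27671 and 29232 in control livers (1.25-fold, adjusted p = 0.332). C4bp, the C4-binding protein and cofactor of factor I, was 1.19-fold higher (adjusted p = 0.407). The log2 changes of the 5 inhibitors lay between 0.25 and 0.34.

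In the classical pathway the hepatocyte-made genes split. C2, the protease part of the classical C3 convertase, had 12344, 12532 and 13029 in LKO livers, against 8108, 10936 and 10478 in control livers (1.29-fold, adjusted p = 0.377). Control liver 1 was the low one, and without it C2 differed by 0.24 on the log2 scale, against 0.37 with it. C4b, the source of the other convertase subunit, had 66340, 69633 and 69478 in LKO livers, against 50104, 60212 and 65282 in control livers (1.18-fold, adjusted p = 0.516). Its gap between the groups was narrow, and without control liver 1 its log2 change was 0.13, against 0.23 with it. The second C4b probe gave 1.16-fold, with overlapping groups. C4b and C4a are near-identical copies, so which copy the probes measured is uncertain. C1ra and C1s1, which encode the C1r and C1s proteases, differed by 1.06-fold and 1.07-fold, with 95% intervals of the log2 change from -0.10 to 0.27 and from -0.08 to 0.28. Both have near-identical neighbours, C1rb and C1s2, which measured 0.995-fold and 1.07-fold.

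In the lectin pathway changes were small. Mbl1 and Mbl2 encode the mannose-binding lectins A and C. Mbl1 measured 4151, 4743 and 4441 in LKO livers, against 4100, 3307 and 3734 in control livers (1.20-fold, adjusted p = 0.446). Mbl2 measured 50862, 56390 and 52214 in LKO livers, against 50559, 45530 and 47292 in control livers (1.11-fold, adjusted p = 0.581). For both the lowest LKO liver was just above the highest control liver.

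Masp1, a protease of this pathway, had 223, 222 and 235 in LKO livers, against 218, 215 and 220 in control livers (1.04-fold, adjusted p = 0.824). A second Masp1 probe, for a predicted transcript, did not pass background on any of the 6 arrays. Masp2, which cuts C4 and C2, averaged 8248 ± 136 in LKO and 8398 ± 678 in control livers (SD, n = 3 each), a log2 change of -0.02 with a 95% interval from -0.24 to 0.19. Its 3 probes disagreed in direction, between -0.10 and 0.04. The median log2 change was 0.44 over the 6 terminal genes, 0.33 over the 5 soluble regulators, 0.23 over the 7 classical genes and 0.11 over the 5 lectin genes, the last 2 groups with their macrophage-made members included.

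**Figure D3:**
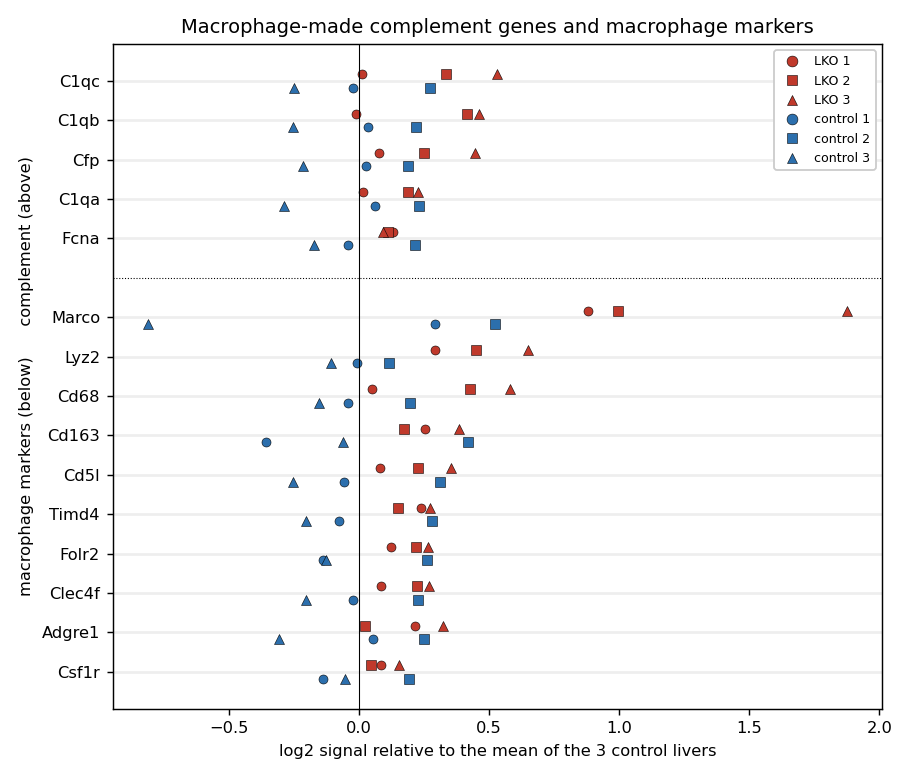
Log2 signal of the 5 tested macrophage-made complement genes (above the dotted line) and of 10 macrophage markers (below it) in each liver relative to the mean of the 3 control livers, LKO drawn above control in each row. Control liver 2 is the rightmost and control liver 3 the leftmost control in all 3 C1q rows, and LKO liver 1 lies among the controls in the C1q rows.

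Among the macrophage-made genes the 3 chains of C1q varied together from mouse to mouse. C1qa measured 1543, 1741 and 1790 in LKO livers, against 1593, 1792 and 1250 in control livers (log2 change 0.14, adjusted p = 0.765). C1qb measured 1268, 1705 and 1763 in LKO livers, against 1312, 1488 and 1073 in control livers (1.22-fold, adjusted p = 0.597). C1qc measured 2413, 3018 and 3453 in LKO livers, against 2353, 2889 and 2012 in control livers (1.23-fold, adjusted p = 0.605). In each of the 3 genes control liver 3 was the lowest of the 6 livers, control liver 2 the highest control, and LKO liver 1 lay within the control range. Their 95% intervals reached from a log2 change of -0.21 to one of 0.72, which includes both 0 and the median of the hepatocyte-made genes.

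Cfp, encoding properdin, which stabilizes the alternative convertase, had 2948, 3319 and 3805 in LKO livers, against 2848, 3183 and 2406 in control livers (1.20-fold, adjusted p = 0.567). Its second probe gave 1.13-fold. Fcna, the mouse ficolin A of Kupffer cells, had 1662, 1638 and 1618 in LKO livers, against 1473, 1762 and 1344 in control livers (1.08-fold, adjusted p = 0.763). The LKO values of Fcna fell inside the control range. The coefficient of variation over the control mice was 13.9% to 18.3% for these 5 genes, against 1.30% to 15.4% for the hepatocyte-made ones, with medians of 16.1% and 6.22%.

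The receptors of the C3a and C5a fragments were too dim to test. C3ar1 gave 19.4, 17.9 and 19.4 in LKO livers, well above background on 2 of the 3 arrays, against 13.1, 15.2 and 12.6 in control livers, on 1 of the 3. C5ar1 gave 11.2, 23.5 and 39.5 in LKO livers, well above background on the array of LKO liver 3 alone, against 4.75, 13.1 and 13.4 in control livers, on none. The groups overlapped for C5ar1, since LKO liver 1 lay below control livers 2 and 3. For C3ar1 they were separate, with higher values in LKO, though not all of its values were well above background.

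Macrophage markers varied over the livers much as these genes did. All 10 Kupffer cell and macrophage markers were tested and had higher values in LKO (median log2 change 0.22). Groups were separate for 2 of the 10, Marco (2.38-fold) and Lyz2 (1.38-fold), where 8.16% of all genes tested were higher with separate groups. Their summed scaled signal, in which brighter probes weigh more, was 30185 to 35807 in LKO livers, against 24327 to 33090 in control livers. Every marker was above background. Averaged over the markers, the log2 signal minus its control mean came to 0.23, 0.29 and 0.51 in LKO livers, against -0.05, 0.28 and -0.23 in control livers. The macrophage-made complement genes gave 0.04, 0.26 and 0.35 in LKO livers, against 0.01, 0.23 and -0.24 in control livers, with the same control livers high and low. The median log2 change of the 5 tested macrophage-made genes was 0.26, and 0.15 without control liver 3 and 0.16 without LKO liver 3. The 5 tested neutrophil and monocyte markers were mixed. S100a8 (5.38-fold), S100a9 (4.63-fold) and Ccr2 (1.40-fold) were higher, and Elane (0.874-fold) and Ly6c2 (0.996-fold) were lower. Mpo and Cxcr2 were above background on no array. In bulk liver more cells of a type and more RNA per cell cannot be told apart, and the part of cell numbers in these values was not tested.

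Hepatocyte markers differed little. Of 8, among them Alb for albumin and Hnf4a, a hepatocyte transcription factor, 6 were higher and 2 lower, with a median log2 change of 0.04. The smallest p values were those of Ttr (0.898-fold) and Ahsg (1.09-fold), both with separate groups. Stellate cell markers had a median log2 change of 0.02, endothelial 0.01 and lymphocyte 0.00, but single markers differed in both directions. Of the stellate markers, Hgf was 1.43-fold and Des 0.592-fold, and of the lymphocyte markers Jchain was 0.535-fold and Cd3e 1.13-fold. Each of the 4 had separate groups, where 8.16% of all genes tested were higher and 9.03% lower with separate groups. The endothelial markers with the smallest p were Pecam1 (0.588-fold) and Clec4g (1.07-fold), with overlapping groups. Of the 2 tested bile duct markers, Krt19 was 0.619-fold, with separate groups, and Sox9 1.18-fold, with overlapping groups.

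Beside 2 other sets of secreted liver proteins, the hepatocyte-made complement genes stood in between. These lists were chosen with earlier results of these data known, so their counts and order are a description only. The 22 acute phase genes were all higher in LKO, 17 with separate groups (8.16% of all genes tested), with a median log2 change of 0.91. The smallest p values belonged to Saa1 (9.75-fold) and Saa2 (11.1-fold), which are near-identical copies. Of 21 coagulation and fibrinolysis genes, another hepatocyte-made protease cascade, 20 were higher, 14 with separate groups, with a median of 0.17. Pros1 (1.40-fold), encoding protein S, and Cpb2 (1.29-fold) had the smallest p. By limma 0 genes of either set passed the adjusted threshold, with 20 acute phase and 6 coagulation genes higher at an unadjusted p under 0.05 (5.59% of all genes tested), and the differences between the sets were not tested. Over the 3 LKO mice the acute phase mean was 0.75, 1.49 and 1.96 above the control mean, and that of hepatocyte-made complement 0.22, 0.33 and 0.29. Control livers lay between -0.21 and 0.27 for acute phase genes and between -0.02 and 0.04 for complement. LKO liver 1 was thus the lowest LKO liver in both, while the acute phase mean of LKO liver 3 was above that of LKO liver 2 and the complement mean was not.

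**Figure D4:**
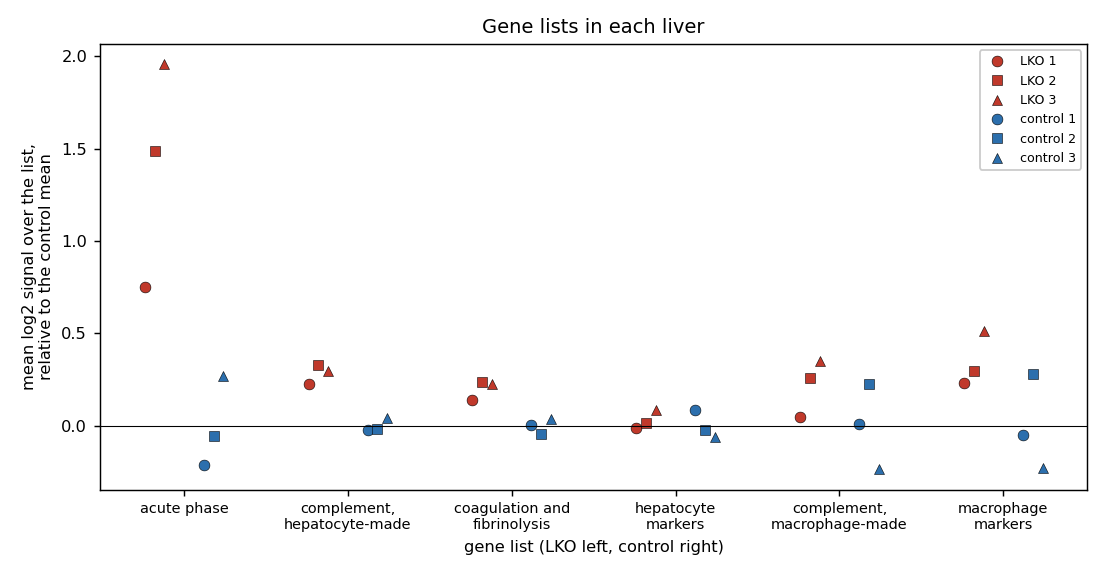
Mean log2 signal over each gene list in each liver relative to the control mean (y axis), LKO left of control in each list, 1 symbol per mouse. The 3 LKO livers lie above the 3 control livers for acute phase, hepatocyte-made complement and coagulation genes, and mix with them for hepatocyte markers, macrophage-made complement and macrophage markers.

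Of the 4 genes made widely or elsewhere, 2 were higher and 2 lower. Cd55, encoding decay-accelerating factor, which breaks up C3 convertases on cell surfaces, had 365, 370 and 420 in LKO livers, against 334, 340 and 352 in control livers (1.12-fold, adjusted p = 0.547), with separate groups. Its 3 probes gave 1.01-fold to 1.12-fold, and the groups were separate for the brightest probe alone. Cd59a, which blocks the pore on the cell's own membrane, had 1503, 1309 and 1327 in LKO livers, against 1574, 1281 and 1439 in control livers (0.965-fold, adjusted p = 0.899). Cr1l, the rodent membrane regulator Crry, had 2759, 3114 and 3084 in LKO livers, against 3025, 2859 and 2929 in control livers (log2 change 0.02, adjusted p = 0.949). The groups overlapped for Cd59a and Cr1l, and the sign of the Cr1l change differed between its 2 probes.

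Cfd encodes factor D, or adipsin, the protease that cuts factor B and is made mainly by fat cells. It measured 34.5, 309 and 47.8 in LKO livers, against 266, 16.9 and 899 in control livers. The highest liver exceeded the lowest 53.2-fold, a range wider than that of all but 3 of the 14170 genes tested, whose median was 1.34-fold. High and low livers occurred in both groups, and the 95% interval of the log2 change ran from -4.60 to 2.61. The second Cfd probe gave 26.4, 200 and 27.1 in LKO livers, against 185, 6.93 and 538 in control livers, with the same 3 livers high.

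Adipocyte markers varied with it. Adipoq, encoding adiponectin, gave 3.71, 22.1 and 4.67 in LKO livers, against 32.2, 6.99 and 150 in control livers. Retn, encoding resistin, gave 17.2, 53.6 and 16.0 in LKO livers, against 54.1, 10.9 and 169 in control livers. Both were well above background in LKO liver 2, control liver 1 and control liver 3 alone, the 3 livers in which Cfd was high. Plin1, the perilipin of fat cells, was above background in control liver 3 alone, and Lep, for leptin, gave 415 to 486 in LKO and 395 to 436 in control livers. The part of fat cells in the Cfd values was not tested.

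**Figure D5:**
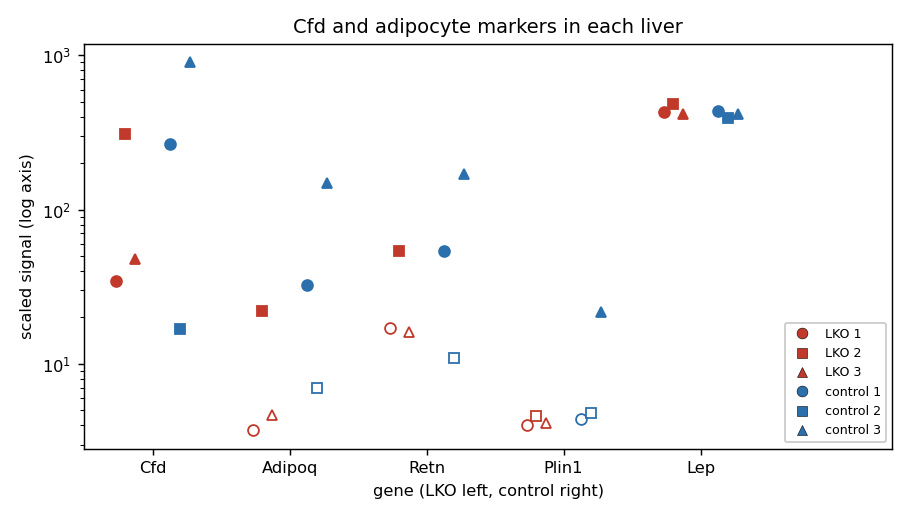
Scaled signal (log axis) of Cfd and 4 adipocyte markers in each liver, LKO left of control, with open symbols where the probe was not well above background. Cfd, Adipoq and Retn are high in LKO liver 2, control liver 1 and control liver 3, and Lep is level over all 6 livers.

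Further genes of the complement system were taken from a separate list of 28, of which 24 were tested and Fcnb, Ptx3, Cd46 and Csmd1 were not above background on any array. Of the 24, 16 were higher and 8 lower in LKO, at a median log2 change of 0.10, where 51% and 49% of all genes were. Of these, 0 passed the adjusted threshold in limma. At an unadjusted p under 0.05, 5 were higher and 1 lower, where 5.59% and 5.56% of all genes were. With separate groups 6 were higher and 2 lower, where 8.16% and 9.03% of all genes were. Crp, a pentraxin that binds C1q, was 1.19-fold higher (adjusted p = 0.421) and Cpn2, the regulatory subunit of the carboxypeptidase that inactivates C3a and C5a, 1.30-fold (adjusted p = 0.414). Cpn1, its catalytic subunit, measured 0.916-fold, with all 3 LKO livers below the control livers, while the groups of Cpn2 overlapped.

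Among receptors on that list, Cr2, the receptor for C3 fragments of B cells, had 51.4, 63.7 and 64.6 in LKO livers, against 44.2, 41.4 and 37.1 in control livers (1.46-fold, adjusted p = 0.236). C5ar2, the second C5a receptor, had 161, 188 and 237 in LKO livers, against 138, 129 and 129 in control livers (1.47-fold, adjusted p = 0.282). The groups did not overlap for either. C7, the terminal component between C6 and C8, went the other way, with 589, 764 and 630 in LKO livers, against 981, 805 and 810 in control livers. All 3 LKO livers were below the control livers (0.762-fold, adjusted p = 0.377), while Hc, C6, C8a, C8b and C9 were all higher.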

How the data were processed

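Liver RNA of 6 mice, 3 LKO and 3 control, was hybridized to one-colour Agilent arrays, 1 mouse per array per the labels. The deposited array files hold the spot intensity from Agilent Feature Extraction 11.5.1.1, per the file headers, as a background-subtracted processed signal, with flags for spots well above background, saturated or outlying as other deposited columns. The authors' deposited value table held the same intensity times a constant for each array. It served as an alternative, and 0 of its columns lacked a sample.

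Outlier and control spots were left out and spots of a probe averaged. Log2 of the processed signal minus that of the array's 75th percentile was tested with limma 3.58.1 in R 4.3.3 (lmFit and eBayes), with Benjamini-Hochberg adjustment and a threshold of 0.05. The brightest probe of a gene over all arrays stood for it, and was tested where it was flagged well above background in every mouse of LKO, of control or of both. Of 56605 probes, 32994 (58.3%) were named by accession through a RefSeq table of GRCm38.p6, 0 had several genes and 23611 had none. Of the 154 list entries, 153 matched. The lists covered acute phase, coagulation, other complement, and hepatocyte, macrophage, neutrophil, adipocyte, endothelial, stellate, bile duct and lymphocyte genes.

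The members and lists were chosen with earlier results of these data known. Every member is accounted for. Per-mouse values are given for the 4 tested members with the smallest p in each role and all macrophage-made ones, and further genes named are the 6 other complement genes and 2 of each other list with the smallest p, beside Elovl6. Of those 6, 1 is not reported here. C8g, C9, Adipoq, Retn, Plin1, C1rb, C1s2, Cpn1, Ccr2, Elane and Ly6c2 were added after their values were seen. The limma step was tested on simulated data. The alternatives were other scalings, the normexp background correction, filters, probe rules, a replicate block, the slide column and leaving out each mouse. Normexp was run on the median spot signal in place of the planned mean signal, which was not used here. Mice of the same number did not deviate together (r = 0.04, -0.05 and -0.07), and r ran from -0.11 to 0.16 for unlike numbers. The mice were therefore treated as unpaired, but with 3 mice per group this check cannot exclude a pairing. Precision is limited by the number of arrays, and the p-values measure the spread between these mice only.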

Additional observations from a re-analysis of the deposited data

How the results depend on the processing

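With 3 mice per group only differences that are large against their SE in limma can pass correction over all genes. In all 16 alternatives 0 complement genes passed, with a smallest adjusted p in limma of 0.0666 (C8a, normexp). The count over all genes, 2 as reported, was 16 with normexp, 1 without a filter on dim probes, 1 with probes required on all 6 arrays, 1 with trended and robust variances, 1 with the slide column, and 1 to 15 when single mice were left out, the 15 without LKO replicate 1. The median log2 change of the hepatocyte-made genes, 0.33 as reported, was 0.26 with quantile normalization, 0.27 with scaling to the array median, 0.23 with the slide column and 0.28 to 0.35 when single mice were left out. The slide column also cut the hepatocyte-made genes at an unadjusted p under 0.05 to 4, against 14, and moved the macrophage-made median to 0.014. Median scaling shifted all genes by -0.05 and left 37.6% of them higher in LKO, against 51%. With the replicate number as a block the hepatocyte-made median was 0.33, the macrophage-made median 0.26, the C8a adjusted p 0.232 and the count over all genes 3, and no complement call changed. Of 480 log2 changes of complement genes under the alternatives, 465 kept their sign, and 23 of the 30 genes kept it in all. Cr1l turned to -0.033 with median scaling, -0.011 with normexp, -0.017 with the mean over probes, -0.090 with the slide column, -0.0099 without LKO replicate 2 and -0.0029 without LKO replicate 3. With the slide column C1qb turned to -0.013, C8g to 0.0029, Cd59a to 0.076 and Masp2 to 0.0041. Without control replicate 1 Cd59a turned to 0.020 and Masp2 to 0.040, without control replicate 3 C1qa to -0.0015 and Cfd to 0.25, and without LKO replicate 3 C8g to 0.0041. Over the fits that left out single mice, log2 changes ran from -0.088 to 0.0041 for C8g, -0.13 to 0.020 for Cd59a, -2.62 to 0.25 for Cfd, -0.0099 to 0.078 for Cr1l and -0.072 to 0.040 for Masp2. The cause was not tested.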
